A study of Mus musculus with 12 samples.

Results

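Markers of T cells, natural killer (NK) cells and B cells were followed in whole mouse liver. The list names 40 genes, chosen by symbol. Of these, 38 were matched on the array, out of 12393 genes in all, while the T cell kinase Lck and the shared cytokine receptor chain Il2rg were not analysed here. The measured members fell into 13 T cell genes, 12 genes of NK and cytotoxic cells, 7 genes of B cells and plasma cells, and 6 genes shared among lymphocytes or leukocytes. RNA came from female C57BL/6 mice aged 8 to 12 weeks, and 12 Affymetrix Mouse430A arrays were run, 3 in each of 4 groups. Wild-type mice were on chow with 25% kcal from fat or on a high-fat diet with 60%, and the remaining groups were the HDAC6 knockout and the HDAC9 knockout. HDAC6 and HDAC9 are histone deacetylases, enzymes that take acetyl groups off proteins. The series' design text places the high-fat feeding after weaning. Its length, the diet of the knockouts and the way the deletions were made are not given in the sources used here. Any contrast of genotype may thus carry a contrast of feeding as well. The labels number the replicates without saying that they are separate mice, and p-values therefore reflect only the spread among these arrays, which may be technical.

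The liver holds resident lymphocytes in its sinusoids and portal tracts, and mouse liver is known for a large share of NK cells and NK T cells. T cells signal through a receptor whose CD3 chains carry the signal to the kinases Lck and Zap70 and the adaptor Lat. NK cells and cytotoxic T cells kill with granules that hold granzymes and perforin, and B cells signal through membrane immunoglobulin with Cd79a, Cd79b and the adaptor Blnk. Whole liver is mostly hepatocyte RNA, and all 7 hepatocyte genes measured read above background. In such bulk samples, fewer cells of a type and less RNA per cell cannot be told apart.

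Most lymphocyte markers could not be told from background in these livers. Values are on the log2 scale, where a difference of 1 is a doubling. A gene was counted as near background when its mean over the 12 arrays lay under 5.36, the 90th percentile of 48 background genes, which have no known expression in liver (median 3.83). By that rule 28 of the 38 members were near background and 10 were above it. Of the 48 background genes themselves 5 lay above the line, the highest at 7.59, and only Zap70 and Ptprc among the members had a higher mean. Lying above the line thus does not by itself show expression. Above background were the T cell genes Zap70, Cd3e and Cd4, the cytotoxic cell genes Ccl5 and Gzma, the B cell genes Ighm, Blnk and Cd22, and the leukocyte genes Ptprc and Coro1a. Defining markers near background included Cd8a and Cd8b1, the CD8 coreceptor of cytotoxic T cells, Ncr1, the receptor NKp46 of NK cells, and Cd79a and Ms4a1, the signalling chain and CD20 antigen of B cells. Of the T cell receptor's CD3 chains, Cd3e was above background and Cd3d, Cd3g and Cd247 were not. The Cd3 genes Cd3g, Cd3d and Cd3e are neighbours on chromosome 9 (bases 44969572 to 44980431, 44981769 to 44987052, and 44998735 to 45009663 in RefSeq's table of GRCm38.p6). A probe set's brightness also depends on its probes, so these levels do not rank the genes.

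**Figure D1:**
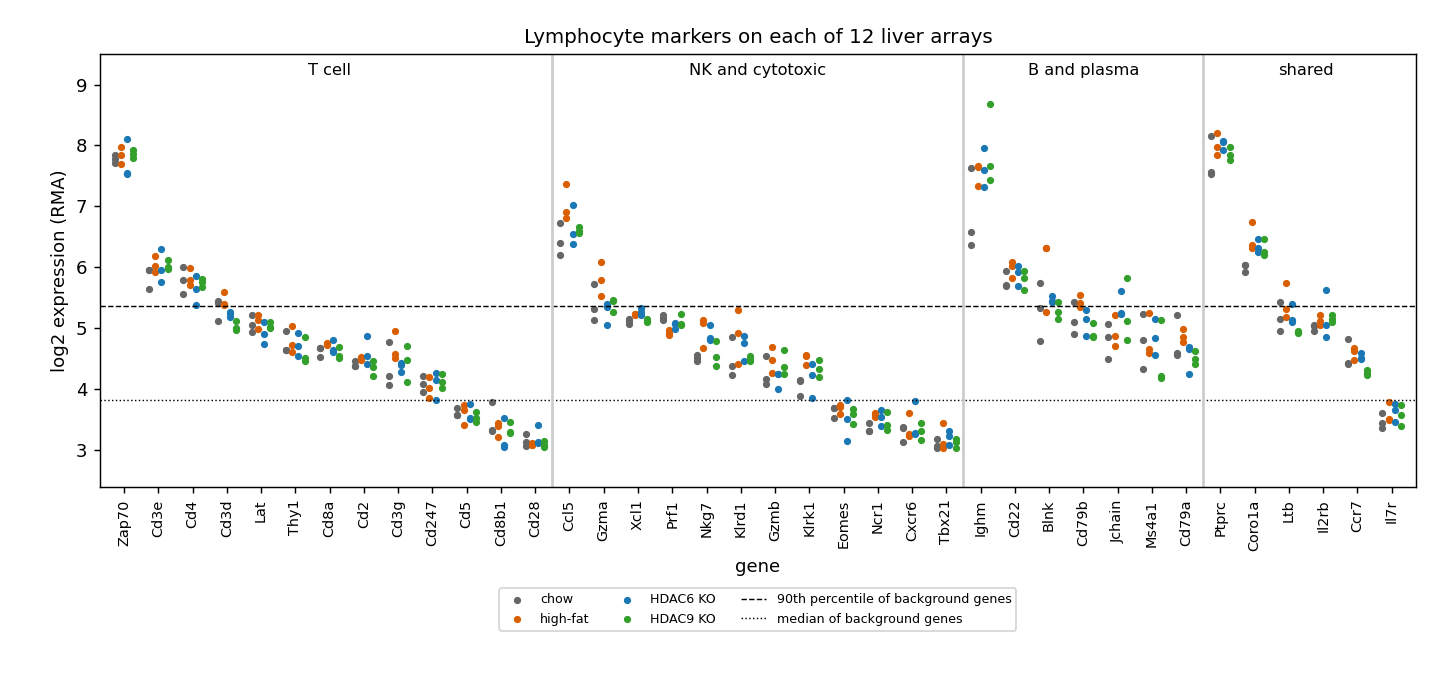
Log2 expression of the 38 measured lymphocyte markers on each of 12 arrays, genes grouped by lineage (chow grey, high-fat orange, HDAC6 knockout blue, HDAC9 knockout green). The dashed line is the 90th percentile (5.36) and the dotted line the median (3.83) of the 48 background genes, and 28 members have a mean under the dashed line.

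Across the whole series, array medians lay between 5.78 and 5.86 and pairs of arrays correlated at r = 0.987 to 0.998 over probe sets, and 3 arrays a group limited the precision. Hdac6 read 6.28 ± 0.198 (SD, n = 3) in the HDAC6 knockout against 7.91 ± 0.0598 (SD, n = 3) on chow, while Hdac9 was near background in every group, at 4.20 in the HDAC9 knockout and 4.30 on chow, and checks no label. Some arrays stood apart for the members. HDAC6 knockout replicate 3 was the highest array of its group for 28 of 38 members, for 36 of the 48 background genes and for 40.1% of all genes. High-fat replicate 1 was the highest of its group for 28 of 38 members, 27 of the 48 background genes and 42.4% of all genes. Chow replicate 2 was the highest of its group for 24 of 38 members, 17 of the 48 background genes and 45.1% of all genes. On HDAC9 knockout replicate 2 the 15 exocrine pancreas genes stood 3.66 above their 12-array means (median), and that array was the highest of its group for 15 of 38 members. The part of these arrays' background level in the results was not tested, and counts that move by much without one of them are given that way too.

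**Figure D2:**
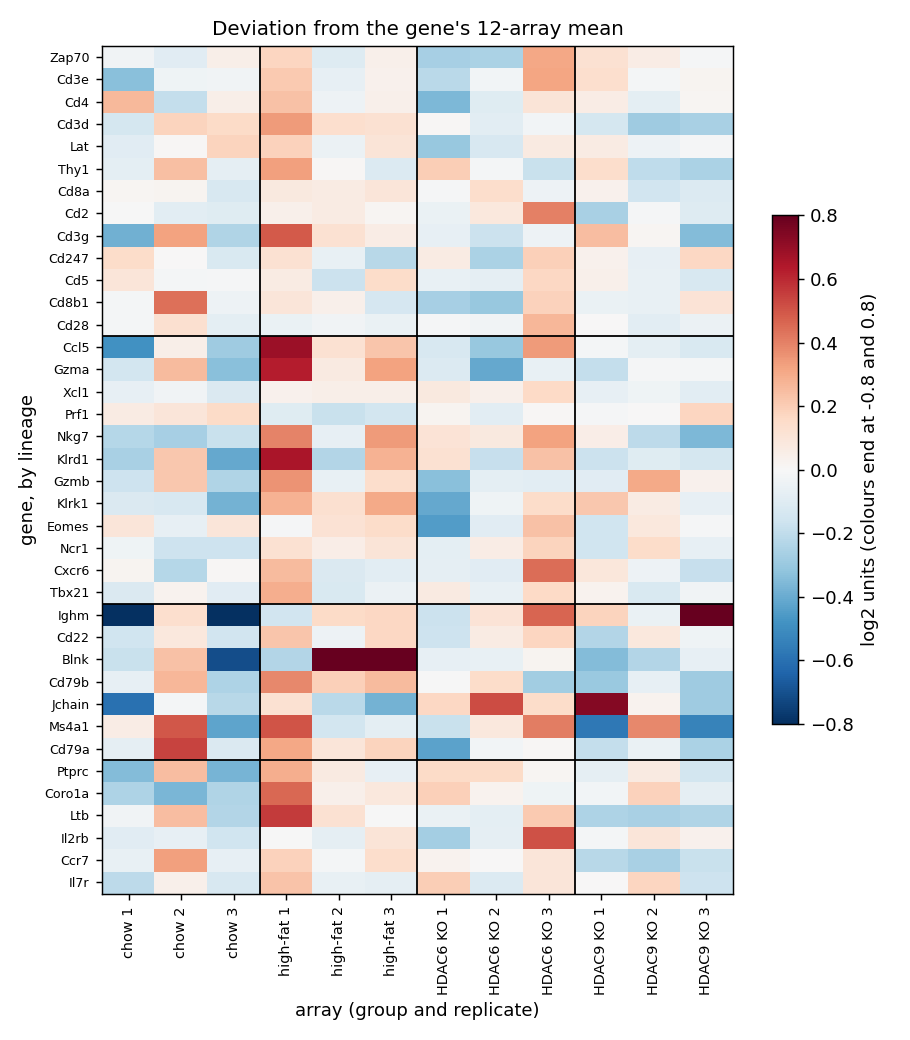
Deviation of each of 38 lymphocyte markers from its own 12-array mean (log2, colours end at -0.8 and 0.8), with arrays in columns by group and genes in rows by lineage. HDAC6 knockout replicate 3 and high-fat replicate 1 are each the highest of their group for 28 of the 38 genes.

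The high-fat diet comparison asks whether lymphocyte transcripts differ between livers of wild-type mice on the 2 diets. No member passed the test (0 of 38, where 0.29% of all genes did, limma with adjusted p under 0.05), yet most sat slightly higher on the high-fat diet. The mean was higher in 33 of 38 members and lower in 5, against 47.2% of all genes higher. The members' median difference was 0.12 on the log2 scale, beside -0.01 over all genes. At an unadjusted p under 0.05, 7 members were higher (4.13% of all genes) and 1 was lower (4.35% of all genes). All 3 high-fat arrays lay above all 3 chow arrays for 8 members (Ccl5, Cd2, Cd8a, Coro1a, Klrk1, Ncr1, Nkg7 and Xcl1), which 7.02% of all genes did, and below them for 1, Prf1 (7.71% of all genes).

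By lineage, the mean was higher on the high-fat diet for 9 of 13 T cell genes (median difference 0.05), 11 of 12 NK and cytotoxic genes (0.21), 7 of 7 B and plasma cell genes (0.19) and 6 of 6 shared genes (0.18). All 10 members above background were higher, with a median of 0.34. Without high-fat replicate 1 the count fell to 24 of 38 members and to 8 of the 10 above background, with a median of 0.0929 over all members. Without chow replicate 2 it stood at 33 of 38. In that refit 13 members in place of 7 were higher at an unadjusted p under 0.05 (4.21% of all genes). There 21 members in place of 8 lay wholly above chow, as did 13.2% of all genes in place of 7.02%. Without chow replicate 3, 4 were higher at that p (3.85% of all genes). Background genes were higher in 29 of 48 (median 0.0293).

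Promoter sequence is shown for members on which the results turn and whose window lies outside any RefSeq gene. Each run below is the 250 bases before a RefSeq transcript start in GRCm38.p6, 5′ to 3′ on the gene's strand, with 2 motifs in capitals: the RUNX letters TGTGGT or ACCACA and the ETS letters AGGAAG or CTTCCT, searched on both strands. RUNX and ETS proteins are transcription factor families used by lymphocytes. Zap70 is shown at the first of its 3 RefSeq starts, because its probe sets disagreed, at chr1:36761548-36761797 (plus strand). Coro1a had the smallest p on the high-fat diet and is shown at chr7:126704817-126705066 (minus strand). Nkg7 separated chow from both the high-fat and the HDAC6 knockout arrays and is shown at chr7:43436888-43437137 (plus strand).
Zap70: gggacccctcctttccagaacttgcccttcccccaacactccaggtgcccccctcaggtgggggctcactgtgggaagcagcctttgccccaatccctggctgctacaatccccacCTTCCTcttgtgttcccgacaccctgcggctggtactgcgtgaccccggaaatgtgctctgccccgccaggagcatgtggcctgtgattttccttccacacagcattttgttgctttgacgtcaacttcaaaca
Coro1a: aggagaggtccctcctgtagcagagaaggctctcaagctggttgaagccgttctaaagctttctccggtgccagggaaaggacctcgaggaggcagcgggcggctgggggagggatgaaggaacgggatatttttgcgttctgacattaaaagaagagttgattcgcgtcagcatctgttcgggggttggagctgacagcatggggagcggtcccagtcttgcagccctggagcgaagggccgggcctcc
Nkg7: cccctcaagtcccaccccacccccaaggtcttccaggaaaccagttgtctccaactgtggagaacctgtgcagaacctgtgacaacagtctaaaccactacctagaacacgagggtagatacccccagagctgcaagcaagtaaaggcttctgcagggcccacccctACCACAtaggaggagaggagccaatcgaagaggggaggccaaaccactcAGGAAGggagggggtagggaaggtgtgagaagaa
The Zap70 window holds 1 ETS match, the Nkg7 window 1 RUNX and 1 ETS match, and the Coro1a window 0. Coro1a has another start, whose window lies inside the gene and holds 1 ETS match. Of the other Zap70 windows, both inside the gene, the second holds 1 RUNX and 2 ETS matches and the third 0. Windows were found for 26 measured members, 31 windows in all. The RUNX letters were in 10 of 31 windows (32.3%) beside 14% of 32851 windows of all genes, and the ETS letters in 18 of 31 (58.1%) beside 29.5%. Windows of 1 gene can overlap, and a match is a run of letters and not evidence of binding.

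Among genes of all leukocytes, Coro1a, an actin-binding protein of immune cells, gave the smallest p of any member. It read 6.04, 5.92 and 6.04 on the chow arrays, 6.74, 6.32 and 6.37 on the high-fat arrays, 6.47, 6.31 and 6.25 in the HDAC6 knockout and 6.26, 6.47 and 6.21 in the HDAC9 knockout. Every chow array lay below every other array. The high-fat mean was 0.48 higher than chow (SE 0.128, 95% interval 0.206 to 0.753, 1.39-fold), with a limma adjusted p of 0.212. The gene's other probe sets gave other values: 0.119 (SE 0.211) on the second brightest and -0.131 (SE 0.114) on the dimmest, which is near background.

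Ptprc encodes CD45, the phosphatase on all nucleated blood cells. Its values were 7.56, 8.16 and 7.54 on chow, 8.20, 7.98 and 7.85 on the high-fat diet, 8.06, 8.07 and 7.93 in the HDAC6 knockout and 7.84, 7.98 and 7.76 in the HDAC9 knockout. Chow replicate 2 lay within the range of the high-fat arrays, and the other chow arrays were the lowest of the 12. The difference of 0.26 (SE 0.152) between high-fat and chow had a limma adjusted p of 0.69.

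The T cell genes had the smallest median difference between diets of the 4 lineages. Cd3e, the signal chain of the T cell receptor, read 5.65, 5.95 and 5.96 on chow, 6.19, 5.92 and 6.02 on the high-fat diet, 5.77, 5.96 and 6.30 in the HDAC6 knockout and 6.12, 5.97 and 6.00 in the HDAC9 knockout. Its high-fat mean was 0.19 above chow (SE 0.142, 95% interval -0.115 to 0.492, adjusted p of 0.761 in limma), and the arrays of these groups overlapped. Cd4, the coreceptor of helper T cells, read 6.01, 5.56 and 5.80 on chow, 5.99, 5.71 and 5.79 on the high-fat diet, 5.39, 5.65 and 5.85 in the HDAC6 knockout and 5.81, 5.67 and 5.77 in the HDAC9 knockout. No group stood apart, and the diet difference was 0.04 (SE 0.142). Over the 13 T cell genes the differences ran from -0.126 (Cd8b1) to 0.324 (Cd3g).

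Zap70, the kinase that binds the phosphorylated CD3 chains, is read by more than 1 probe set, and they disagreed. The brighter one, which stands for the gene here, read 7.77, 7.71 and 7.85 on chow, 7.97, 7.70 and 7.85 on the high-fat diet, 7.53, 7.55 and 8.11 in the HDAC6 knockout and 7.93, 7.86 and 7.80 in the HDAC9 knockout. These groups overlapped, and the diet difference was 0.06 (SE 0.14, limma adjusted p of 0.921). The second probe set read 7.52, 6.97 and 7.03 on chow, 8.83, 8.15 and 8.12 on the high-fat diet, 7.89, 7.80 and 7.74 in the HDAC6 knockout and 7.62, 7.36 and 7.48 in the HDAC9 knockout. Here every high-fat array lay above every other array, and every HDAC6 knockout array above all chow arrays.

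In a fit of all 20380 probe sets with 1 symbol, the second Zap70 probe set was 1.19 higher on the high-fat diet than on chow (SE 0.181, 2.29-fold, limma adjusted p of 0.0129), which made it 1 of 64 member probe sets called, where 0.186% of all probe sets were. Without chow replicate 2 the difference was 1.09 and the adjusted p 0.0532, so the call was lost, and it held in the other 12 of 13 refits. Against the HDAC9 knockout the high-fat mean was 0.88 higher (adjusted p of 0.0729 in limma) and against the HDAC6 knockout 0.55 higher (0.519). The HDAC6 knockout stood 0.64 above chow (SE 0.181, adjusted p of 0.718 in limma) and the HDAC9 knockout 0.31 above it (adjusted p 0.864). RefSeq lists 3 starts for Zap70, the first of which has the promoter printed above with its ETS match. The transcript that each probe set reads is not given in the sources used here, and why they differ was not tested.

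**Figure D3:**
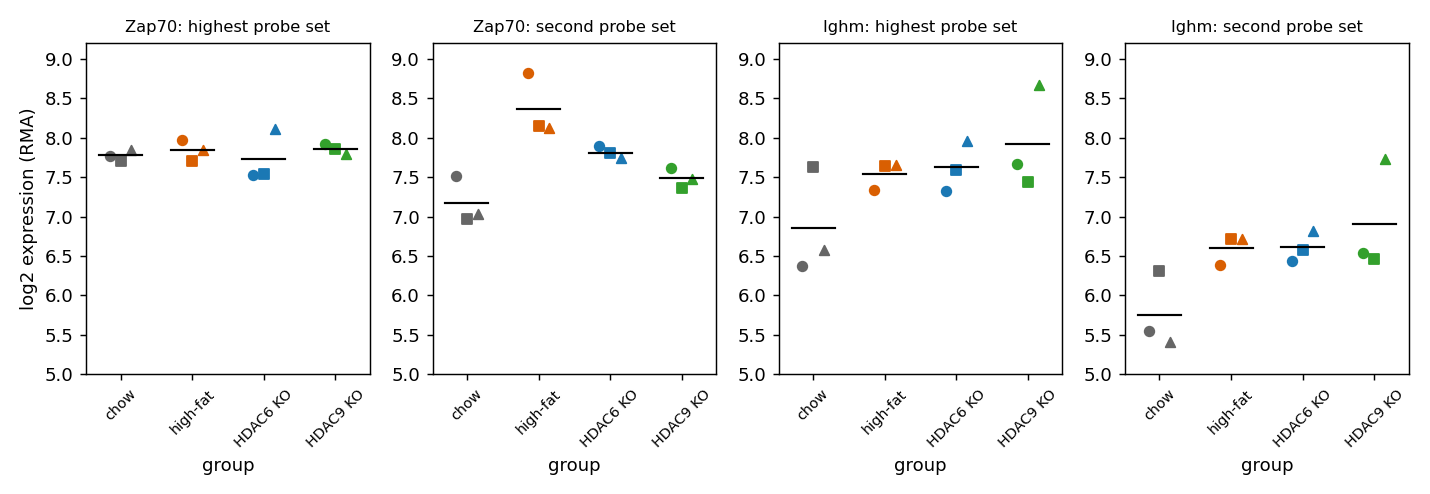
Log2 expression of the brightest and second brightest probe sets of Zap70 and Ighm on the 12 arrays, by group (circle, square and triangle for replicates 1, 2 and 3, bar for the group mean). The second Zap70 probe set has all high-fat arrays on top, between 8.12 and 8.83, which the brighter one does not show, while both Ighm probe sets show the same order of group means.

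Genes of NK and cytotoxic cells held most of the members with small p. Ccl5 (RANTES), a chemokine stored by NK cells and memory T cells, read 6.20, 6.73 and 6.40 on chow, 7.37, 6.81 and 6.90 on the high-fat diet, 6.55, 6.38 and 7.02 in the HDAC6 knockout and 6.67, 6.60 and 6.56 in the HDAC9 knockout. All high-fat arrays lay above all chow arrays, by a margin of under 0.1 between the nearest. The mean was 0.58 higher (SE 0.183, 95% interval 0.193 to 0.975, 1.5-fold, limma adjusted p of 0.319). Gzma, the granzyme A protease of cytotoxic granules, read 5.32, 5.72 and 5.13 on chow, 6.09, 5.54 and 5.79 on the high-fat diet, 5.36, 5.06 and 5.40 in the HDAC6 knockout and 5.28, 5.46 and 5.45 in the HDAC9 knockout. The high-fat and chow arrays overlapped through chow replicate 2, and the difference was 0.42 (SE 0.167, adjusted p of 0.49 in limma), or 0.273 without high-fat replicate 1.

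The remaining cytotoxic cell members were near background. They are named here for their unadjusted p, after their values were seen, except Ncr1. Nkg7, a granule membrane protein, read 4.51, 4.47 and 4.56 on chow, 5.13, 4.67 and 5.08 on the high-fat diet, 4.85, 4.81 and 5.06 in the HDAC6 knockout and 4.79, 4.53 and 4.37 in the HDAC9 knockout. Its chow arrays lay under every high-fat and HDAC6 knockout array, and the diet difference was 0.45 (SE 0.139, limma adjusted p of 0.315). Klrk1, the activating receptor NKG2D, read 4.15, 4.13 and 3.89 on chow, 4.54, 4.39 and 4.57 on the high-fat diet, 3.86, 4.23 and 4.41 in the HDAC6 knockout and 4.48, 4.33 and 4.20 in the HDAC9 knockout, with a diet difference of 0.44 (SE 0.138, adjusted p of 0.315 in limma). Ncr1 read 3.45, 3.32 and 3.32 on chow, 3.61, 3.54 and 3.59 on the high-fat diet, 3.40, 3.54 and 3.66 in the HDAC6 knockout and 3.32, 3.63 and 3.42 in the HDAC9 knockout. These values lie under the median of the background genes, so the separation of the diets by 0.22 (SE 0.102, limma adjusted p of 0.598) is one between readings at background.

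Prf1, the pore-forming protein perforin that delivers granzymes, ran the other way on the probe set that stands for it. It read 5.13, 5.16 and 5.22 on chow, 4.97, 4.89 and 4.92 on the high-fat diet, 5.09, 4.98 and 5.07 in the HDAC6 knockout and 5.06, 5.07 and 5.24 in the HDAC9 knockout. The high-fat arrays were the lowest of the 12, with a difference of -0.24 to chow (SE 0.0973, limma adjusted p of 0.49). A dimmer second Prf1 probe set read 4.31, 4.17 and 4.28 on chow and 4.21, 4.27 and 4.37 on the high-fat diet. There the HDAC6 knockout read 4.27, 4.63 and 4.48 and the HDAC9 knockout 4.33, 4.36 and 4.27, and the arrays of all groups overlapped. Gzmb, granzyme B, was 0.21 higher (SE 0.15) and Klrd1, the CD94 receptor chain, 0.38 higher (SE 0.2), neither past the threshold.

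The B cell genes above background were Ighm, Blnk and Cd22. Ighm, the constant region of the immunoglobulin M heavy chain, read 6.37, 7.63 and 6.58 on chow, 7.34, 7.65 and 7.66 on the high-fat diet, 7.32, 7.60 and 7.96 in the HDAC6 knockout and 7.67, 7.44 and 8.68 in the HDAC9 knockout. Chow replicates 1 and 3 were the lowest of the 12 arrays and chow replicate 2 was among the rest. The diet difference was 0.69 (SE 0.32, limma adjusted p of 0.587), 0.445 without chow replicate 1 and 1.07 without chow replicate 2. Blnk, the adaptor below the B cell receptor, read 5.32, 5.74 and 4.80 on chow, 5.27, 6.31 and 6.33 on the high-fat diet, 5.44, 5.44 and 5.53 in the HDAC6 knockout and 5.15, 5.27 and 5.43 in the HDAC9 knockout. High-fat replicates 2 and 3 were the highest of the 12 arrays, replicate 1 was not, and the difference was 0.68 (SE 0.256, adjusted p of 0.45 in limma), 1.03 without high-fat replicate 1 and 0.437 without chow replicate 3.

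Cd22, an inhibitory receptor of B cells, read 5.70, 5.94 and 5.71 on chow, 6.08, 5.82 and 6.03 on the high-fat diet, 5.70, 5.93 and 6.03 in the HDAC6 knockout and 5.63, 5.94 and 5.82 in the HDAC9 knockout. Cd79a read 4.60, 5.22 and 4.56 on chow, 4.99, 4.77 and 4.85 on the high-fat diet, 4.25, 4.66 and 4.69 in the HDAC6 knockout and 4.49, 4.62 and 4.42 in the HDAC9 knockout. Groups overlapped for both between the diets, with differences of 0.19 (SE 0.129) for Cd22 and 0.08 (SE 0.167) for Cd79a.

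**Figure D4:**
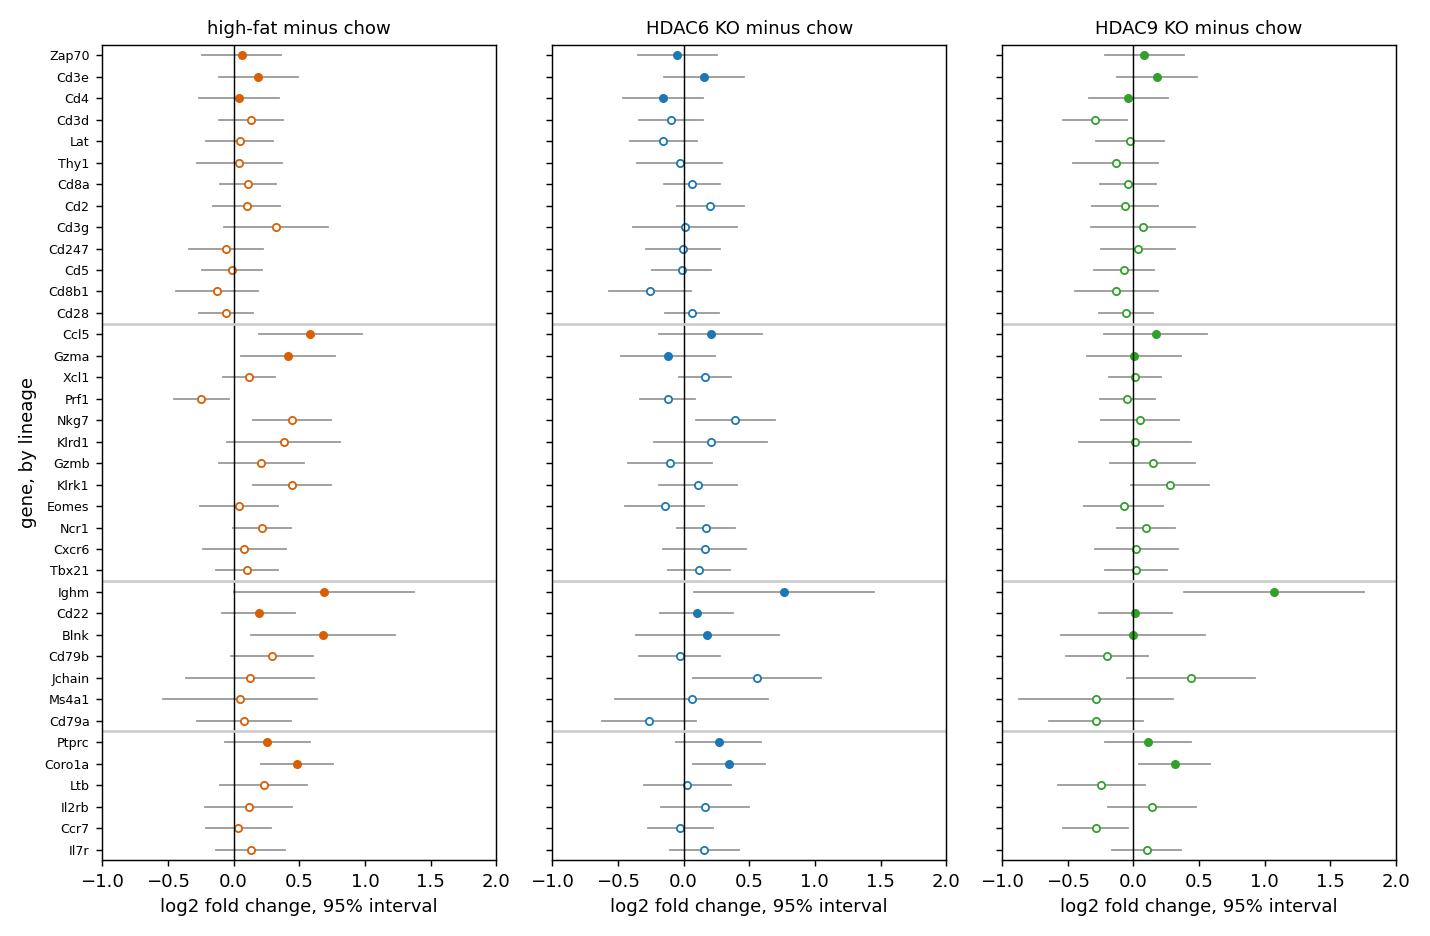
Difference of the high-fat, HDAC6 knockout and HDAC9 knockout means from chow for each of 38 lymphocyte markers (log2, bars are 95% intervals from limma, filled points are above background and open points near it). In the high-fat panel 33 points lie above 0, and no gene passes an adjusted p of 0.05 in any panel.

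Markers of macrophages were also higher on the high-fat arrays. Of 19 genes of Kupffer cells, the liver's resident macrophages, 18 were above background and 17 were higher on the high-fat diet than on chow (median difference 0.347, 0 past the threshold), and their mean level ran from 8.73 to 8.98 on the high-fat arrays and from 8.35 to 8.73 on chow. All 8 MHC class II genes, which B cells and macrophages share, were higher as well (median 0.286, 0 past the threshold). The deviation of the Kupffer cell list by array was highest on high-fat replicate 1 (0.28) and lowest on chow replicates 1 and 3 (-0.22 and -0.40), and for MHC class II chow replicates 1 and 3 were at -0.38 and -0.47 and chow replicate 2 at 0.35. Chow replicate 2 was also the highest chow array for most lymphocyte markers. Their part in the lymphocyte values, above all Ptprc and Coro1a, was not tested.

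**Figure D5:**
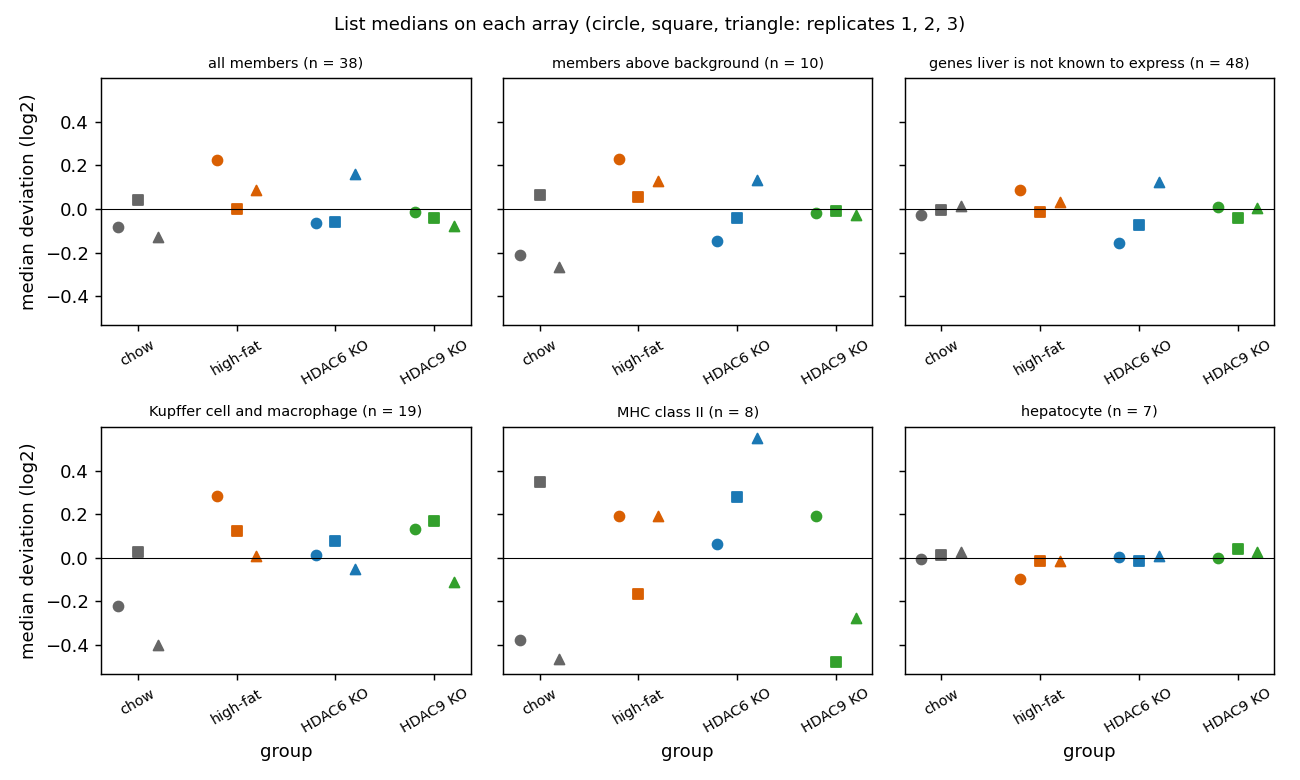
Median deviation from the 12-array mean (log2) per array for 6 gene lists: all lymphocyte markers, those above background, background genes, Kupffer cell, MHC class II and hepatocyte genes. Chow replicate 2 lies above chow replicates 1 and 3 for the lymphocyte, Kupffer cell and MHC class II lists, and hepatocyte genes stay between -0.098 and 0.038.

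The HDAC6 knockout was compared with chow for the effect of the deletion. Again 0 of 38 members passed (0.0161% of all genes did). The mean was higher in 23 members and lower in 15, against 45.6% of all genes higher, with a median difference of 0.06 beside -0.01 over all genes. At an unadjusted p under 0.05, 4 members were higher (2.74% of all genes) and 0 lower (3.03% of all genes). Arrays did not overlap for 5 members, Coro1a, Jchain, Nkg7 and Xcl1 above chow (4.83% of all genes) and Prf1 below it (5.31%). The second Prf1 probe set did not show this separation. Without HDAC6 knockout replicate 3, 18 of 38 means were higher and the median turned to -0.0132. Background genes were higher in 18 of 48 with all arrays (median -0.033) and in 6 of 48 without that array (-0.1061). Without HDAC6 knockout replicate 3, 2 members were higher (1.94% of all genes) and 3 lower at an unadjusted p under 0.05. That higher count was also 2 without HDAC6 knockout replicate 2 (1.91% of all genes) or chow replicate 1 (2.69%). Without chow replicate 2, 28 were higher with a median of 0.15, and without chow replicate 3, 19 were higher with a median of 0.0005.

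By lineage, 5 of 13 T cell genes, 8 of 12 NK and cytotoxic genes, 5 of 7 B and plasma cell genes and 5 of 6 shared genes were higher in the HDAC6 knockout. The members with an unadjusted p under 0.05 were Nkg7 at 0.39 (SE 0.139, limma adjusted p of 0.759), Coro1a at 0.35 (SE 0.128), Jchain at 0.56 (SE 0.227) and Ighm at 0.76 (SE 0.32, 95% interval 0.0808 to 1.45, and 1.15 without chow replicate 2). Jchain joins immunoglobulin M and A into polymers and marks plasma cells. It was near background at 4.49, 5.07 and 4.86 on chow, 5.21, 4.88 and 4.71 on the high-fat diet, 5.25, 5.61 and 5.23 in the HDAC6 knockout and 5.83, 5.11 and 4.80 in the HDAC9 knockout. Its HDAC6 knockout arrays all lay above chow, and those of the HDAC9 knockout did not. The MHC class II genes were higher in 8 of 8 (median 0.571) and Kupffer cell genes in 15 of 19 (median 0.235), with 0 called in either list and their part in these values not tested.

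The HDAC9 knockout was compared with chow in the same way, and 0 of 38 members passed (0.0968% of all genes did). Means were higher in 21 members and lower in 17, against 46% of all genes higher, and the median was 0.01 beside -0.01 over all genes. At an unadjusted p under 0.05, 2 members were higher (2.49% of all genes), Ighm and Coro1a, and 2 were lower (3.6%), Cd3d and Ccr7. Arrays lay above chow without overlap for 4 members (Cd3e, Coro1a, Il2rb and Klrk1, 5.39% of all genes) and below it for 2 (Ccr7 and Ltb, 7.21%). The second Il2rb probe set did not show this. It read 4.92, 4.96 and 4.90 in the HDAC9 knockout and 5.10, 5.17 and 4.83 on chow. With replicate 2 of the HDAC9 knockout left out, which carried the pancreas genes, 19 of 38 means were higher and the median was -0.0016. Without chow replicate 2, 23 were higher, with a median of 0.0326, and 9 lay wholly above chow (10.4% of all genes). Markers of some other leukocytes were higher in these livers, while the MHC class II genes were higher in 3 of 8 and lower in 5 (median -0.0505). Of the 19 Kupffer cell genes 18 were higher than on chow (median 0.273, 0 called), with a mean level of 8.63 to 8.91 against 8.35 to 8.73. All 14 neutrophil genes measured, of which 5 were above background, were higher (median 0.25), with a mean level of 4.87 to 5.42 against 4.49 to 4.68. Among them Il1b, the cytokine interleukin 1 beta, passed at 0.84 (SE 0.128, adjusted p of 0.0377 in limma), a call kept in 6 of 14 refits and lost without any single HDAC9 knockout array, chow replicate 1 or 3, high-fat replicate 2 or 3, or HDAC6 knockout replicate 2. The neutrophil level of 5.42 was on HDAC9 knockout replicate 2, the array with the pancreas genes, and replicates 1 and 3 read 4.93 and 4.87. On replicate 2 Prtn3 of the neutrophil list read 8.71, against 4.92 and 4.40 on replicates 1 and 3. Of the 9 adipocyte genes measured, 1 passed, Lpl, at 1.23 above chow (adjusted p of 0.0463 in limma). It read 9.41, 10.33 and 9.71 in the HDAC9 knockout and 8.30, 8.57 and 8.89 on chow, so its highest value was also on replicate 2. The part of the Kupffer cell and neutrophil lists in the lymphocyte values was not tested.

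On the probe sets that stand for the genes, Ighm had the largest difference of any member from chow, at 1.07 in the HDAC9 knockout (SE 0.32, 95% interval 0.384 to 1.75, 2.10-fold, limma adjusted p of 0.548). It was 0.694 without HDAC9 knockout replicate 3 and 1.45 without chow replicate 2. Its second brightest probe set gave the same order of groups, at 5.55, 6.31 and 5.41 on chow, 6.39, 6.72 and 6.71 on the high-fat diet, 6.44, 6.58 and 6.82 in the HDAC6 knockout and 6.54, 6.46 and 7.73 in the HDAC9 knockout. On that probe set the lowest array of each of the other groups lay above the highest chow array. The differences from chow were 1.15 for the HDAC9 knockout (adjusted p of 0.482), 0.86 for the HDAC6 knockout (0.748) and 0.85 for the high-fat diet (0.412), by limma over every probe set. HDAC9 knockout replicate 3 was the highest of the 12 arrays on both probe sets. The other 9 probe sets of Ighm with 1 symbol had means of 3.14 to 5.43, and with the brightest of them that carries no shared-probe suffix the difference from chow was -0.0911 for the HDAC6 knockout and 0.0094 for the HDAC9 knockout. Ighm lies in the immunoglobulin heavy chain locus on chromosome 12 (bases 113418826 to 113422730, GRCm38.p6), where probes can be shared among related transcripts, so its value is uncertain.

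Cd3d and Ccr7 were the lower members with an unadjusted p under 0.05, and neither passed the test. Cd3d, a chain of the T cell receptor complex, read 5.12, 5.44 and 5.41 on chow, 5.60, 5.39 and 5.38 on the high-fat diet, 5.27, 5.18 and 5.24 in the HDAC6 knockout and 5.12, 4.98 and 5.003 in the HDAC9 knockout. Its difference from chow in the HDAC9 knockout was -0.29 (SE 0.114, limma adjusted p of 0.741). Ccr7, the receptor that guides lymphocytes to lymph nodes, read 4.43, 4.82 and 4.42 on chow, 4.67, 4.47 and 4.63 on the high-fat diet, 4.52, 4.49 and 4.59 in the HDAC6 knockout and 4.26, 4.23 and 4.31 in the HDAC9 knockout. The HDAC9 knockout arrays were the lowest of the 12, with a difference of -0.29 (SE 0.116, adjusted p of 0.757 in limma) from chow, all of it near background. Without chow replicate 2 that difference was -0.156. For the neighbours of Cd3d the differences were not of this sign: Cd3e differed by 0.18 (SE 0.142) and Cd3g by 0.07 (SE 0.185).

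Between the knockouts, 0 of 38 members passed (0.00807% of all genes did), and 13 means were higher in the HDAC9 knockout, 25 in the HDAC6 knockout, where all genes divided at 49.7% higher. No member's HDAC9 knockout arrays lay wholly above those of the HDAC6 knockout (3.74% of all genes did), and 6 lay wholly below (4.71%): Blnk, Ccr7, Cd3d, Ltb, Nkg7 and Xcl1. At an unadjusted p under 0.05, 0 were higher (1.78% of all genes) and 3 were lower (2.02%), Nkg7 by -0.34 (SE 0.139), Cd2 by -0.27 (SE 0.119) and Ccr7 by -0.26 (SE 0.116), all near background. The median difference was -0.07, and -0.0008 over all genes. Leaving out single arrays of these groups moved it between -0.114 and -0.0145. Without HDAC6 knockout replicate 3, 18 means were higher in the HDAC9 knockout, and 7 members lay wholly above and 8 wholly below. In that refit 1 was higher and 0 lower at an unadjusted p under 0.05. Of all genes 14.7% then lay wholly above and 4.96% were higher at that p, and the shares for the lower direction are not given here. Background genes were higher in the HDAC9 knockout in 36 of 48 with all arrays (median 0.0457) and in 39 of 48 in that refit (0.1107). Cd2 then differed by -0.139.

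The high-fat group was also set against each knockout, comparisons in which genotype and possibly diet differ together. Against the HDAC6 knockout 0 of 38 members passed (0.145% of all genes did), with 25 means higher on the high-fat diet (52.1% of all genes). Gzma was 0.53 higher (SE 0.167, 95% interval 0.175 to 0.89, limma adjusted p of 0.38), and its lowest high-fat array lay above its highest HDAC6 knockout array. Klrk1 at 0.33 (SE 0.138) and Cd79b, the partner chain of Cd79a, at 0.32 (SE 0.145) were the others with an unadjusted p under 0.05, 3 members in all (3.58% of all genes), and 0 were lower (3.69%). Arrays did not overlap for 6 members higher (6.6% of all genes) and 2 lower (6.54%), Jchain and Prf1. Without HDAC6 knockout replicate 3, 31 means were higher, and 8 members were higher at an unadjusted p under 0.05 (6.3% of all genes). In that refit 14 members lay wholly above (17.3% of all genes), and Cd79b differed by 0.203. The background genes moved in the same direction. With all arrays 37 of 48 were higher on the high-fat diet (median 0.0766, members 0.0667). With HDAC6 knockout replicate 3 left out, 41 of 48 were higher (median 0.1437, members 0.1505). At that p, 1 member was higher without HDAC6 knockout replicate 1 (3.41% of all genes), where Klrk1 differed by 0.177, and 1 without high-fat replicate 3 (3.28%). Without high-fat replicate 1, 21 means were higher and 2 members at that p (2.78% of all genes). Without high-fat replicate 2, 29 means were higher and 6 members at that p (3.11% of all genes).

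Against the HDAC9 knockout 0 of 38 members passed (0.436% of all genes did), and 32 means were higher on the high-fat diet (51.4% of all genes), with a median of 0.135 beside 0.0049 over all genes. Of the background genes 34 of 48 were higher (median 0.0374). Here 9 members were higher at an unadjusted p under 0.05 (4.46% of all genes) and 0 lower (3.64%), led by Cd3d at 0.42 (SE 0.114, limma adjusted p of 0.168), Cd79b at 0.49 (SE 0.145, 0.24) and Ltb at 0.47 (SE 0.154, 0.318). Ltb encodes lymphotoxin beta, a lymphocyte cytokine that organises lymphoid tissue. Cd3d, Cd79b and Ltb were all near background. Arrays did not overlap for 10 members higher (7.67% of all genes) and 1 lower, Prf1 (6.13%). Without high-fat replicate 1, 26 means were higher, 3 members at an unadjusted p under 0.05 (4.11% of all genes), and Ltb differed by 0.309. Without HDAC9 knockout replicate 1 the count at that p was 5 (4.83% of all genes). Every comparison with the high-fat group uses the same 3 high-fat arrays, and every comparison with chow the same 3 chow arrays, so the counts are not independent of each other. A single test over the 4 groups called 0 of 38 members (0.331% of all genes), with Nkg7 at the smallest adjusted p of 0.381 (limma F-test).

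Of 28 further genes of T cells and T cell receptor signalling, 33 of NK and cytotoxic cells, 27 of B and plasma cells and 20 lymphocyte chemokines and homing molecules, 9, 5, 8 and 11 were above background, and 0 passed in any comparison with chow. On the high-fat diet the mean was higher for 21 of 28 (median 0.0494), 19 of 33 (0.0144), 19 of 27 (0.0876) and 16 of 20 (0.0858) in that order, beside 47.2% of all genes and 29 of the 48 background genes. Zbtb16, the transcription factor PLZF of NK T cells, had the smallest p of the cytotoxic list and differed from chow by -1.10 (SE 0.257, limma adjusted p of 0.132) on the high-fat diet and by -0.94 (SE 0.257, 0.585) in the HDAC6 knockout. Zbtb16 is not restricted to lymphocytes. The chemokine Ccl3, in the cytotoxic and the chemokine lists, was 0.44 higher (SE 0.108, limma adjusted p of 0.15) at readings near background, where chow stood at 2.83. The interferon-induced chemokine Cxcl9, which draws activated T cells, was 0.71 higher (SE 0.218, adjusted p of 0.305 in limma), and Cd72, a B cell coreceptor, was 0.62 higher in the HDAC9 knockout (SE 0.138, 0.227).

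Among the lists of further lymphocyte genes, that of progenitor and recombination genes was the only one to hold calls. Of its 10 measured genes Dntt and Kit were above background, and Dntt and, near background, Stap1 passed on the high-fat diet. Dntt, terminal transferase, which adds bases at joints of antigen receptor genes, read 5.92, 6.29 and 5.53 on chow, 8.13, 7.56 and 7.30 on the high-fat diet, 6.46, 6.76 and 6.79 in the HDAC6 knockout and 6.36, 7.07 and 6.91 in the HDAC9 knockout. Every high-fat array lay above every other array, and every chow array below. The 3.36-fold difference from chow (limma adjusted p of 0.00427) held in all 14 refits. Stap1, a B cell adaptor, read 3.81, 4.28 and 4.04 on chow, 5.79, 5.59 and 5.51 on the high-fat diet, 3.89, 4.08 and 4.99 in the HDAC6 knockout and 4.33, 3.93 and 3.97 in the HDAC9 knockout. Its high-fat arrays lay above the background line of 5.36 and all others under it, so the difference of 1.59 from chow (log2, SE 0.225, adjusted p of 0.00578 in limma) is one from readings at background and no measured fold. Without high-fat replicate 1 the adjusted p was 0.0505. Stap1 was also higher than in the HDAC6 knockout (adjusted p of 0.0308, kept in 9 of 14 refits and lost without any single high-fat array or HDAC6 knockout replicate 1 or 2) and the HDAC9 knockout (0.0102, kept in 13 of 14 and lost without high-fat replicate 1). The other 8 genes of that list, Rag1 and Rag2 among them, did not pass in any comparison with chow.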

How the data were processed

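Values were deposited by the authors as log2 expression per probe set after RMA, per the submitters' processing notes, from 100 ng of RNA per sample per the labels. Software and chip definition are not given in the sources used here. The table held 22626 probe sets, of which GEO's platform annotation gave 20380 1 symbol, 691 several and 1555 none (4 probe sets with several symbols named Ighm and were left out). Per gene, the probe set with the highest 12-array mean was used, and 14 members had several. Groups were compared with limma 3.58.1 in R 4.3.3 (4 group means, variance trend, two-sided tests, Benjamini-Hochberg over 12393 genes, 14.32 degrees of freedom, median SE 0.141 for members and 0.124 for all genes). Intervals are 95%. With 3 arrays a group an outlying array has more weight than in a larger design.

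The members and lists were chosen with earlier results of these data known. By rule, the text gives every array for Ptprc, Cd3e, Ncr1, Ighm, Cd79a and for members above background with the smallest p per lineage, and from other lists called genes and some of those of smallest p. Alternatives were other variance priors and normalizations, probe-set rules, filters on dim genes, a replicate block and arrays left out. The refits of called items were each array left out, quantile normalization and, for genes, median centring. The procedure was tested on simulated data. Promoters and gene positions come from RefSeq tables of GRCm38.p6. Figures used Python 3.11.15, pandas 2.3.3 and matplotlib 3.10.9.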

Additional observations from a re-analysis of the deposited data

Results flagged for a closer look

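The second brightest Zap70 probe set, which did not stand for the gene in the main comparison, was 1.19 higher on the high-fat diet than on chow (log2, SE 0.181, limma adjusted p of 0.0129 over every probe set). It drew attention because it gives a signal in values that the gene's chosen probe set (0.06) does not show. Groups of 3 arrays are too small for the outlier test used in larger groups, and it was not run.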

How the results depend on the processing

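Of 271 alternative values for the counts of called members and the median differences, 265 stayed close to the main value. Close meant a count within 1.5 times it, or a median within 0.0978, the spread of the members' median between arrays of a group. That allowance exceeds several of the medians, so a median could change sign and still count as close. The median for the HDAC9 knockout against chow went from 0.0116 to -0.024 in this way. Single members were followed only in comparisons where their main unadjusted p was under 0.05, which leaves out Zap70 between the diets. Of these 579 values, 575 kept their direction and their side of the threshold. With genes near background left out, 10 members remained. Their median difference from chow was 0.17 for the HDAC6 knockout and 0.337 for the high-fat diet, beside 0.063 and 0.119 over all 38 members. With every probe set on its own, 1 member (Zap70) was called between the diets and 1 in the test over 4 groups, and the same counts, 1 and 1, came with the other Zap70 probe set standing for the gene, an alternative chosen after seeing the data, as was the removal of HDAC6 knockout replicate 3 and high-fat replicate 1 together. With probe sets that carry a shared-probe suffix left out, other, dimmer probe sets stood for Ighm, Coro1a and Cxcr6, and the direction turned in 4 of the named differences: Ighm to -0.0911 in the HDAC6 knockout (limma adjusted p of 0.972), and Coro1a to -0.0362 in the HDAC6 knockout (0.989), -0.33 in the HDAC9 knockout (0.721) and -0.131 on the high-fat diet (0.814). Leaving out single arrays gave 0 called members in all 6 comparisons and the test over 4 groups. The median then ran from -0.0132 to 0.15 for the HDAC6 knockout, -0.024 to 0.0326 for the HDAC9 knockout and 0.0929 to 0.196 for the high-fat diet against chow. It ran from -0.114 to -0.0145 between the knockouts, and for the high-fat diet from 0.0233 to 0.15 against the HDAC6 knockout and 0.0809 to 0.165 against the HDAC9 knockout.

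Replicate numbers are shared by the groups, but same-numbered arrays correlated at -0.152 to 0.148 in their deviations, and an array was closest to its own number in 10 of 36 cases, so the numbers were not taken to pair the arrays. With the replicate number as a block, 0 members were called in all 6 comparisons and the high-fat median stayed at 0.119, while calls over all genes went from 41 to 64 in the test over 4 groups, from 2 to 3 for the HDAC6 knockout against chow and from 1 to 2 between the knockouts. Over all alternatives the number of all genes called ranged from 1 to 4 for the HDAC6 knockout, 0 to 22 for the HDAC9 knockout and 13 to 49 for the high-fat diet against chow. Signal over background is one limit: 28 of 38 members were near it, and the members' median SE of 0.141 leaves small differences unresolved.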
